A study of Homo sapiens with 19 samples.

Results

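The binding of oestrogen-related receptor α (ERRα) in SKBr3 cells treated with EGF was compared directly with that in SKBr3 cells treated with heregulin (HRG), leaving aside the peaks of vehicle-treated cells. SKBr3 is a human breast cancer cell line with an amplified HER2 (ERBB2) gene. Both groups were starved of serum for 24 h, and chromatin was taken after 90 min with EGF or HRG, each given in the labels as 100 μM. An EGF peak and an HRG peak that overlapped by at least 1 bp counted as shared, and all other peaks stood alone in their list. The EGF list held 32567 ERRα peaks and the HRG list 37195 peaks, of 264623 peaks in the 8 lists of the series. They formed 47753 sites, of which 21264 were shared (44.5%), 10831 were bound on EGF but not HRG (22.7%) and 15658 on HRG but not EGF (32.8%). The EGF list and the HRG list each pool 2 ChIP libraries against an input library of their own treatment. The lists therefore hold no spread between cultures, no difference between EGF and HRG could be tested, and growth factor, libraries and input cannot be told apart. They hold no tag counts either, so the read depth is unknown. All intervals below are 95% Wilson intervals on shares, or log-scale intervals on ratios, and cover counting error only.

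EGF binds EGFR, which pairs with HER2, whereas HRG binds HER3, which also signals by pairing with HER2. Both routes feed the RAS-MAPK and PI3K-AKT cascades, and within minutes to hours they induce immediate early genes such as FOS and JUN, whose products form the AP-1 dimers. ERRα is an orphan nuclear receptor that binds a response element called the ERRE and is best known for control of mitochondrial and energy metabolism genes. It can also be held at chromatin through other factors, so both its own element and the AP-1 motif were looked for under the peaks.

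The sequences below are examples of the AP-1 and ERRE words compared between the classes, from the peaks of highest score away from promoters that hold them. Most sites of every class hold neither word. They are read from GRCh37 (hg19), the motif is in capitals, and coordinates are those of the 61 bp shown. The AP-1 word TGAGTCA and its reverse complement TGACTCA are shown on the plus strand. Sites are named by the gene of the nearest start, which need not be the gene they lie in. The first 4 sequences come from the AP-1 sites of highest score bound on EGF but not HRG. They lie in an intron 29138 bp from a start of GSS (glutathione synthetase) and 2328 bp from DDIT4 (an inhibitor of mTORC1). The other 2 lie in an intron near PPARGC1B (the ERRα coactivator PGC-1β) and 29433 bp from NRP1 (a semaphorin and VEGF co-receptor).
GSS, chr20:33495648-33495708: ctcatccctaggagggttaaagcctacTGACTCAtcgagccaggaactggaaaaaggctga
DDIT4, chr10:74036006-74036066: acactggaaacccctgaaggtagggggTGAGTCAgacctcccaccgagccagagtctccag
PPARGC1B, chr5:149161500-149161560: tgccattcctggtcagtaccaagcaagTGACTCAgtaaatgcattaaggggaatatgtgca
NRP1, chr10:33445208-33445268: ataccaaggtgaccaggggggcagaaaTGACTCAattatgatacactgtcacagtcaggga

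The next 2 come from the AP-1 sites of highest score bound on HRG but not EGF, and the 2 after them from shared sites. Repeats were not annotated in the sequence used.
HCFC1R1, chr16:3072447-3072507: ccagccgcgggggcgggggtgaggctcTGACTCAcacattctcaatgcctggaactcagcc
RDH13, chr19:55582021-55582081: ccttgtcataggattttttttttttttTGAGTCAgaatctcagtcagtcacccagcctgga
GRIP1, chr12:67218136-67218196: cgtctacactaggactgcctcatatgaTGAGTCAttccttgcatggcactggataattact
PISD, chr22:32042573-32042633: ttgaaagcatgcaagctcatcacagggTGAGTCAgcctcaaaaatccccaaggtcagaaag

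The ERRE is shown on the strand on which it reads TCAAGGTCA. The first 3 sequences are from sites bound on EGF but not HRG, the next 3 from sites bound on HRG but not EGF, and the last 2 from shared sites.
TGFBR2, chr3:30534266-30534326, plus strand: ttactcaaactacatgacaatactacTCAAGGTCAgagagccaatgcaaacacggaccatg
TNRC6B, chr22:40557377-40557437, plus strand: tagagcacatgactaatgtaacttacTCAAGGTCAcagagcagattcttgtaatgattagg
DLX6, chr7:96531513-96531573, minus strand: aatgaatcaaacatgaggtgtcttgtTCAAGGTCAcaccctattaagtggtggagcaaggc
SEC61G, chr7:54911630-54911690, minus strand: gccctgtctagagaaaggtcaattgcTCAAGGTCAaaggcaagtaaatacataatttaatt
SEPTIN9, chr17:75308697-75308757, minus strand: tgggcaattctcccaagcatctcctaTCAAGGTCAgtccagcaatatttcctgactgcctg
PALLD, chr4:169618882-169618942, minus strand: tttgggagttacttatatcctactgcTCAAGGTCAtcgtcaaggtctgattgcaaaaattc
EEA1, chr12:93521257-93521317, plus strand: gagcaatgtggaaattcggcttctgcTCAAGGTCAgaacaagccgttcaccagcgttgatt
BCL11A, chr2:60703243-60703303, minus strand: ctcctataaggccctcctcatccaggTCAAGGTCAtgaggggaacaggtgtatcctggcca

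The MACS score of a peak rises with the negative logarithm of its P value, the lowest in both lists being 50 to 50.01, and was used to rank peaks within a list. The 4 EGF peaks with an AP-1 word scored 1226 at GSS, 1176 at DDIT4, 1054 at PPARGC1B and 1039 at NRP1. Their percentiles in the list were 91.6, 91.2, 90.1 and, rounded, 90. The 3 EGF peaks with an ERRE had lower scores, of 485 near TGFBR2 (the type II TGF-β receptor), 369 at TNRC6B and 367 near DLX6. On HRG, the AP-1 peaks scored 1244 at HCFC1R1 and 999 at RDH13, and the ERRE peaks 571 near SEC61G, 505 at SEPTIN9 and 462 at PALLD. In both classes the ERRE sites shown thus had lower scores than the AP-1 sites shown. The AP-1 word was the more frequent in both classes, so these top scores come from unequal numbers of sites. At the shared sites shown, the EGF scores were 3233 at GRIP1 and 3198 at PISD for AP-1. For the ERRE they were 3233 near EEA1 and 3225 at BCL11A. These are at or near the highest score of the EGF list, 3233, and so cannot show whether the words differ there. All 6 of these ERRE sites of 1 list also held a peak in the vehicle list, as did 3 of the 4 EGF sites with AP-1, whereas neither of the HRG sites with AP-1 did.

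Most of the sites that separate EGF from HRG were weak. Peaks alone in the EGF list were 33.3% of that list (32.7 to 33.8) and peaks alone in the HRG list 42.1% (41.6 to 42.6). With each list divided by score into 10 groups of equal size, 67.1% of the EGF peaks in the lowest group had no HRG peak, and in the highest group 14 of 3257, or 0.43%, had none. The corresponding shares of HRG peaks without an EGF peak were 74.2% and 0.726%, the latter 27 of 3720. The plot of peaks of 1 list by score shows the fall in both lists, with HRG above EGF in all 10 groups. The median score percentile was 26.5 for the EGF peaks alone, 29.7 for the HRG peaks alone, 64.7 for shared EGF peaks and 67.8 for shared HRG peaks. A peak of the other list lay within 1 kb of 5.53% of the EGF peaks alone and 6.81% of the HRG peaks alone. A site missing from a list may be unbound or lie under the P value cutoff, and the lists do not tell these apart.

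**Figure D1:**
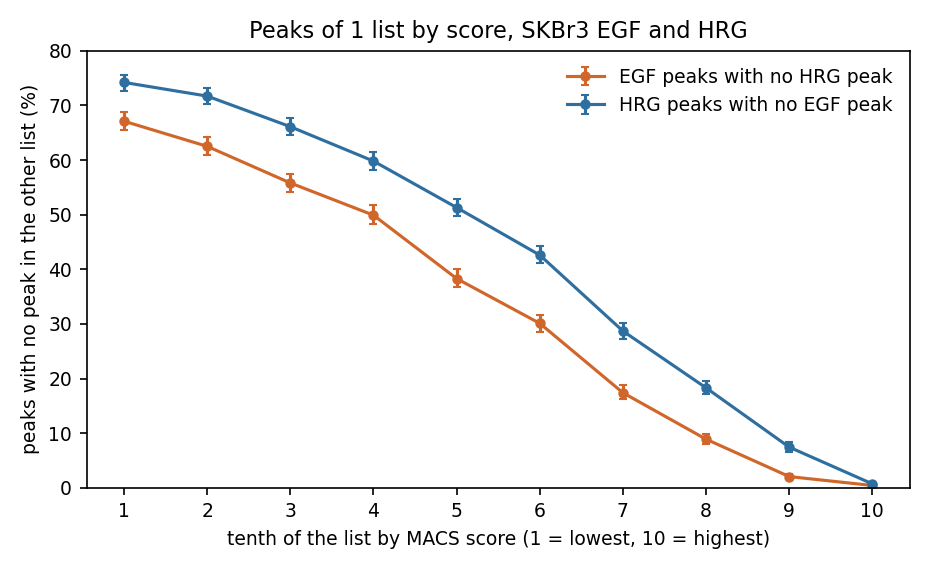
Share of peaks that stood alone (%, y axis) in 10 groups of equal size by MACS score within the list (x axis, lowest to highest) for SKBr3 EGF peaks (orange) and HRG peaks (blue). Points are shares and bars 95% Wilson intervals. The share falls from 67.1% to 0.43% on EGF and from 74.2% to 0.726% on HRG.

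Shared sites were ranked alike in both lists. In 20622 shared sites with exactly 1 peak of each list, the peak centres lay a median of 68.5 bp apart, and the Spearman correlation of their scores across sites was 0.65, a description over sites of the same 2 lists. The median gap between the score percentiles was 13.3. In 1913 pairs the EGF percentile was higher by 30 or more, and in 2565 pairs the HRG percentile. The pairs with the larger EGF rank resembled the sites bound on EGF but not HRG. They held an AP-1 word in 16.2% (14.6 to 17.9), against 9.2% (8.14 to 10.4) of the pairs with the larger HRG rank, and lay at a promoter in 4.44% against 25.8%. Their mean GC content was 42.8% against 54.7%.

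The widest gaps were at single sites such as that 49912 bp from GLUL (glutamine synthetase), where the EGF peak scored 767 and the HRG peak 50.01, close to the cutoff. In an intron of ZMIZ1 (a transcriptional coregulator) the scores were 1358 on EGF and 55.7 on HRG, and in an intron near MUC15 849 and 53.0. In the other direction, a site in an intron near TBCE (a tubulin-folding cofactor) scored 1311 on HRG and 52.0 on EGF. A site 153320 bp from PTPN1 (the tyrosine phosphatase PTP1B) scored 1427 and 55.3, and the promoter of TMEM184A 936 and 54.2. Of the 5 widest gaps in each direction, the vehicle list had a peak at 4 of those with the higher EGF rank, all but that near INHBA, and at 1 of those with the higher HRG rank, that near USP24.

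The location of the sites differed between the growth factors. A promoter was taken as 1 kb to either side of the start of a protein-coding transcript, and it held the centre of 3.77% of the sites bound on EGF but not HRG (408, interval 3.42 to 4.14) and of 18.8% of those bound on HRG but not EGF (2942, interval 18.2 to 19.4). The ratio of the shares was 4.99 (4.51 to 5.52). Shared EGF peaks lay between them, at 14.5%. Sites bound on EGF but not HRG were 49.7% intergenic and 44.3% intronic, and 51.4% of them lay more than 50 kb from any start, against 25.7% for HRG. The median distance to a start was 52983 bp on EGF but not HRG, 14607 bp on HRG but not EGF, and 20812 bp for shared EGF peaks. Read from the lists, 11.5% of the EGF peaks at promoters had no HRG peak, whereas 47.9% of the HRG peaks at promoters had no EGF peak.

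GC content moved with the class in the same way as location. Within 100 bp of the peak centre it averaged 41.6% ± 7.01 (SD over 10831 peaks) on EGF but not HRG, 51.9% ± 10.8 on HRG but not EGF (15658 peaks) and 48.8% ± 9.3 for shared EGF peaks (21736 peaks). With all peaks divided at 43.8% and 52.2% GC into 3 groups of nearly equal size, 50.3% of the EGF peaks in the group of lowest GC had no HRG peak, 29.2% of those in the middle group and 8.54% of those in the group of highest GC. Of the HRG peaks in the same groups, 37.1%, 35.9% and 50.2% had no EGF peak. The surplus of HRG sites at promoters was smaller within these groups. The ratio of promoter shares was 0.872 at low GC, with an interval that spans equal shares (0.671 to 1.13). It was 1.87 (1.54 to 2.28) at middle GC and 2.05 (1.72 to 2.44) at high GC. Whether the GC content arose in the libraries or in the binding was not tested.

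The AP-1 motif was more frequent at sites bound on EGF but not HRG. It lay within 100 bp of the centre of 14.2% of them (1536, interval 13.5 to 14.9), of 7.22% of the sites bound on HRG but not EGF (1130, interval 6.82 to 7.63), and of 11.9% of shared EGF peaks. Windows of the same length 2 kb to either side held it in 3.25%, 3.03% and 3.21%. The ratio of EGF to HRG was 1.97 (1.83 to 2.11). It was above 1 in each GC group, at 2.16 (1.87 to 2.49), 1.67 (1.49 to 1.88) and 2.54 (2.08 to 3.1) from low to high. At promoters the AP-1 word was found in 11.8% of the EGF sites and 3.33% of the HRG sites, the latter close to the 3.06% of their flanks. Away from promoters it was found in 14.3% and 8.12%. In the plot of motif positions the EGF sites reach 4.56% of peaks in the 50-bp bin just after the centre, and the HRG sites 2.15%.

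The ERRE followed the same order over all sites and in the groups of low and middle GC. The word TCAAGGTCA was found in 6.84% of the sites bound on EGF but not HRG (741, interval 6.38 to 7.33), in 3.54% of those bound on HRG but not EGF (554, interval 3.26 to 3.84) and in 7.75% of shared EGF peaks, over flanks of 0.282%, 0.319% and 0.386%. All classes were therefore well above their flanks, by 24.3-fold on EGF but not HRG and 11.1-fold on HRG but not EGF. The ratio of EGF to HRG was 1.93 (1.74 to 2.15) over all sites, 2.22 (1.84 to 2.69) at low GC, 1.22 (1.01 to 1.46) at middle GC, and 0.689 at high GC, with an interval that includes 1 (0.387 to 1.23), where 12 of 670 EGF sites and 200 of 7691 HRG sites held the word. In 3 groups of peaks by score, the shares on EGF but not HRG and on HRG but not EGF were 7.29% (6.69 to 7.94) and 4.11% (3.71 to 4.55) in the lowest, 6.62% (5.86 to 7.47) and 3% (2.59 to 3.47) in the middle, and 2.71% (1.62 to 4.5) and 2.14% (1.49 to 3.08) in the highest group, where the intervals overlap. AP-1 and ERRE words tended to lie at different EGF sites. The ERRE was found in 3.58% (2.76 to 4.63) of the sites on EGF but not HRG with an AP-1 word and in 7.38% (6.87 to 7.93) of those without. On HRG but not EGF the shares were 3.01% (2.16 to 4.18) and 3.58% (3.29 to 3.89), with intervals that overlap.

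**Figure D2:**
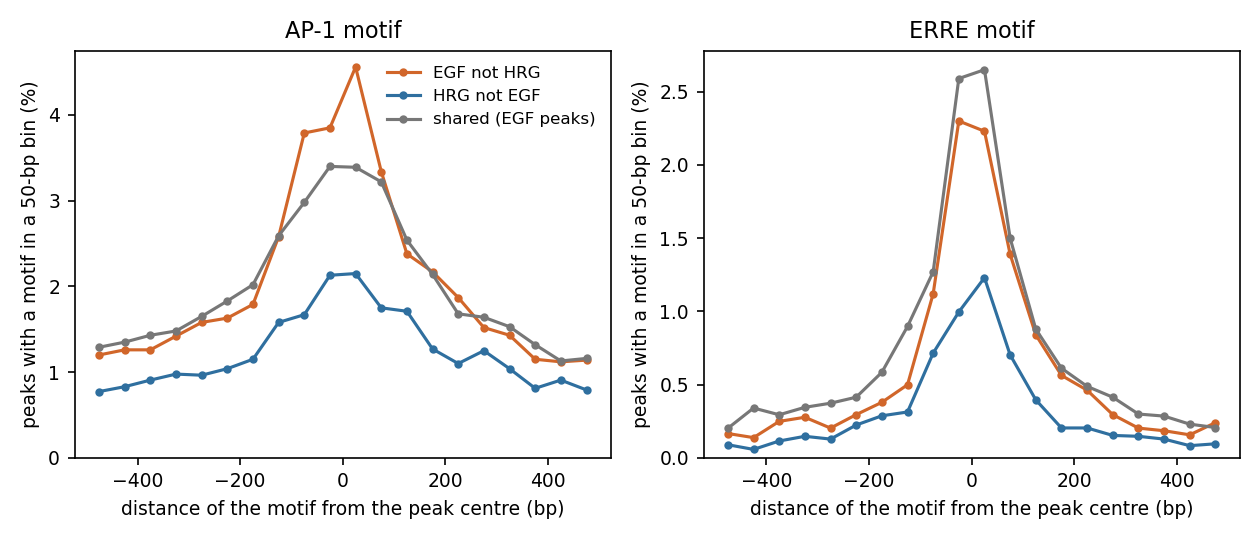
Share of peaks with an AP-1 (left) or ERRE (right) motif in bins of 50 bp (%, y axis) against distance from the peak centre in bp (x axis), for sites on EGF but not HRG (orange), on HRG but not EGF (blue) and shared EGF peaks (grey). Both motifs peak at the centre in every class, AP-1 highest on EGF but not HRG (4.56%) and ERRE highest in shared peaks (2.65%).

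**Figure D3:**
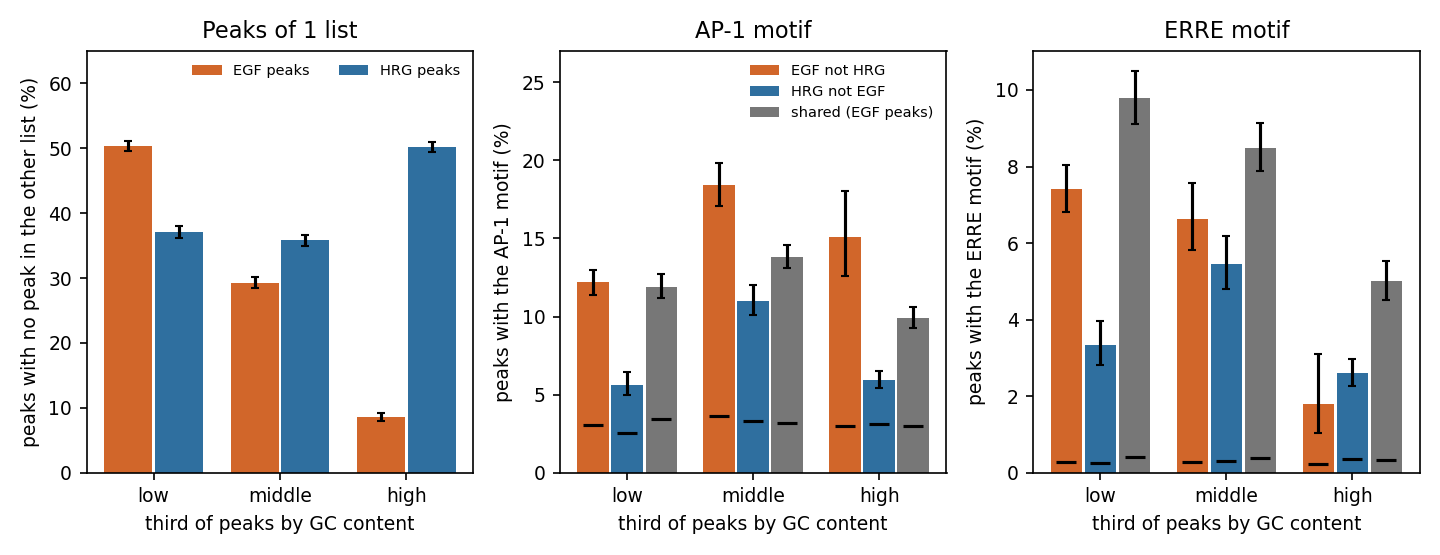
Left, share of EGF (orange) and HRG (blue) peaks with no peak in the other list (%) in 3 groups of peaks by GC content, of nearly equal size. Middle and right, share of peaks with an AP-1 or ERRE motif within 100 bp of the centre (%) in the same groups, for sites on EGF but not HRG (orange), on HRG but not EGF (blue) and shared EGF peaks (grey). Bars on the columns are 95% Wilson intervals and black dashes the share in flanking windows. AP-1 is higher on EGF but not HRG in all 3 groups, whereas the ERRE order turns at high GC (1.79% against 2.6%), where the intervals overlap.

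The other words of the 17 searched went in both directions. The SP/KLF word GGGGCGGGG was found in 0.212% of the sites on EGF but not HRG, no more than in their flanks (0.235%), and in 2.28% of those on HRG but not EGF (flanks 0.9%). The ETS word CCGGAAGT was found in 0.231% and 0.894%, against flanks of 0.0923% and 0.163%. The forkhead word TGTTTAC went the other way, with 5.98% on EGF but not HRG (flanks 3.28%) and 2.7% on HRG but not EGF (flanks 2.27%), as did the TEAD word GGAATGT with 5.11% (flanks 3.02%) and 3.47% (flanks 2.64%). The AP-2 word GCCNNNGGC was found in 5.39% (flanks 2.74%) and 11.6% (flanks 5.89%), a similar ratio to the flanks in both classes. The words of NF-Y, RUNX and GATA factors were found in 2.23%, 3.86% and 3.33% of the sites on EGF but not HRG and in 1.72%, 3.49% and 1.86% of those on HRG but not EGF, against flanks of 2.17%, 3.91% and 3.25% for EGF and 1.93%, 3.35% and 2.07% for HRG. A word match is a description of the sequence and not evidence of a bound factor.

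The other ERRα peak lists overlapped the EGF sites and the HRG sites unequally. The vehicle list held a peak at 48.9% (47.9 to 49.8) of the sites on EGF but not HRG and at 11.3% (10.8 to 11.8) of those on HRG but not EGF. No peak of any of the other 6 lists was present at 28.1% and 44.8% of the sites, compared with 7.03% of shared EGF peaks. The AP-1 word was found in 20.6% of the EGF sites and 7.78% of the HRG sites where the vehicle list had no peak, and in 23.4% (22.2 to 24.5) of the shared EGF peaks there, above the EGF sites (19.6 to 21.7). Where it had a peak, the shares were 7.46% at EGF sites, 2.82% at HRG sites, within the counting error of their flanks (2.94%), and 8.3% (7.89 to 8.73) at shared EGF peaks, overlapping the interval of the EGF sites (6.78 to 8.2). The higher AP-1 share of sites on EGF but not HRG than of shared EGF peaks over all sites was therefore not seen within either group.

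The remaining SKBr3 lists come from untreated parental cells (pSKBr3) and from lapatinib-resistant cells kept in 2 μM of lapatinib, an inhibitor of EGFR and HER2 (LRSKBr3). The labels name no growth factor for either and give no starvation for them. The LRSKBr3 list held a peak at 73.7% of the 2942 promoter sites on HRG but not EGF, and the pSKBr3 list at 51.8%. Away from promoters these shares were 38.4% and 16.3%. At the 408 promoter sites on EGF but not HRG they were 60.5% and 28.9%, and at promoters with shared EGF peaks 95.2% and 85.9%. In BT-474, another HER2-amplified breast cancer line, the EGF and HRG lists did not divide the SKBr3 sites by growth factor. Each BT-474 list comes from a single ChIP library, and the only BT-474 input library is of untreated cells. Sites on EGF but not HRG had a BT-474 HRG peak more often (38.5%) than a BT-474 EGF peak (23.1%), and 1.88% had a BT-474 peak on EGF without one on HRG. Sites on HRG but not EGF had a BT-474 HRG peak in 14.8% and a BT-474 EGF peak in 8.14%. The BT-474 HRG list is the larger, with 41271 peaks against 26832.

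**Figure D4:**
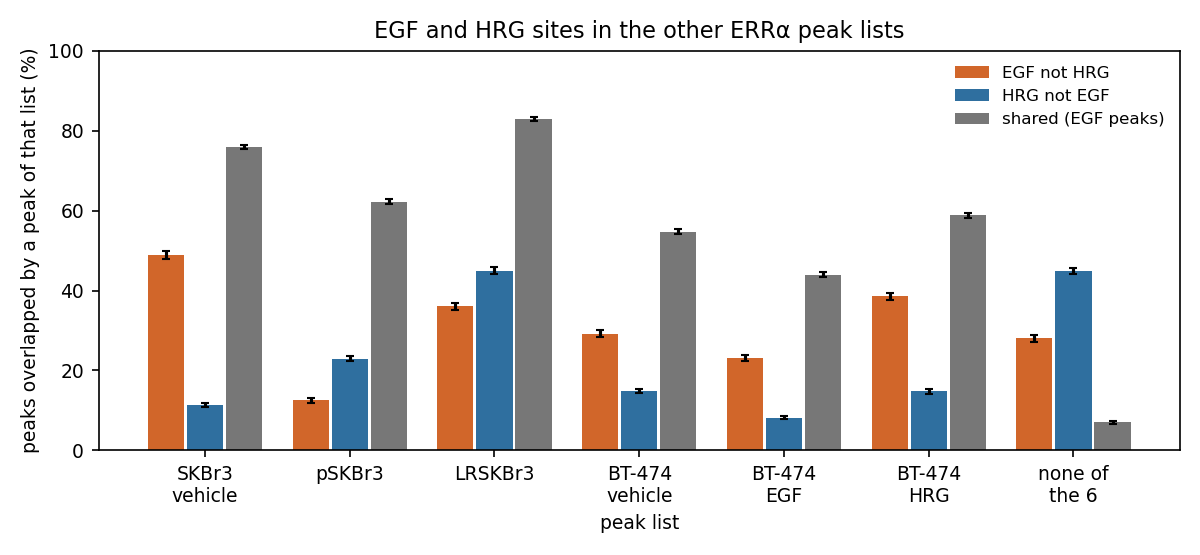
Share of sites overlapped by a peak of each other ERRα list (%, y axis), for sites on EGF but not HRG (orange), on HRG but not EGF (blue) and shared EGF peaks (grey), with the share found in none of the 6 lists at the right. Bars are 95% Wilson intervals. Sites on EGF but not HRG exceed those on HRG but not EGF in the vehicle and the 3 BT-474 lists and lie below them in pSKBr3 and LRSKBr3.

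Strong peaks that stood alone were few and mostly present in other lists. Of the EGF peaks at a score percentile of 75 or over, 180 had no HRG peak, and 144 of these (80%) had a vehicle peak. Of the HRG peaks at that percentile, 573 had no EGF peak, and 118 of these (20.6%) had a vehicle peak. Peaks of all 6 other lists were found at 38 of the 180 EGF sites (21.1%, interval 15.8 to 27.6) and at 22 of the 573 HRG sites (3.84%, interval 2.55 to 5.74). These strong peaks were wide, with medians of 2348 bp on EGF and 2374 bp on HRG.

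At promoters, the strongest EGF peak without an HRG peak lay 643 bp from a start of SPRED2, an inhibitor of RAS-MAPK signalling, with a score of 979 and the nearest HRG peak 8725 bp away. It was followed by CDC42BPA (a CDC42-binding kinase, 644), EXOC1 (a subunit of the exocyst, 530), RNF144B (a ubiquitin ligase, 474) and UQCC1 (an assembly factor of respiratory complex III, 452). All 5 also held a vehicle peak. The strongest HRG promoter peaks without an EGF peak were at ACSS2 (cytosolic acetyl-CoA synthetase, 1584), WWP1 (a ubiquitin ligase, 1473), CASKIN2 (1254), STX16 (a syntaxin of the Golgi, 1252) and SLC16A5 (a monocarboxylate transporter, 1147). None of these 5 held a vehicle peak. The EGF peak nearest to that at ACSS2, 27980 bp away, was the AP-1 site named above for GSS. LRSKBr3 peaks were present at all 5 EGF and all 5 HRG promoters, and pSKBr3 peaks at 4 and 5 of them. Neither set had an AP-1 or ERRE word within 100 bp of the centre.

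Away from promoters, the EGF peaks of highest score without an HRG peak were near a coding gene listed without a symbol on chromosome 7 (score 3100), in an intron of DGLUCY (3053), in an exon near TNFAIP1 (2444), in an intron of BCAS4 (2094) and in an intron 5821 bp from a start of MMP9 (matrix metalloproteinase 9, 1996). The MMP9 peak ended only 51 bp from an HRG peak, so that its class rests on the overlap rule. The HRG peaks of highest score without an EGF peak were 2792 bp from a start of CSRNP1 (an immediate early nuclear protein), in an intron of PREX1 (a RAC exchange factor) and in an intron of UBE2H (a ubiquitin-conjugating enzyme), each at 3100, then near PPP6R2 (2715) and PEDS1-UBE2V1 (2280). The 10 peaks were 4230 to 19945 bp wide, against list medians of 1396 bp and 1401 bp, and none of them had an AP-1 or ERRE word at the centre. In the order given, the 5 EGF sites had peaks in 6, 6, 6, 5 and 5 of the other 6 lists, and the 5 HRG sites in 5, 6, 6, 2 and 5. Without tag counts it cannot be checked whether reads were also enriched at these sites in the list that lacks the peak.

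The surplus of HRG sites differed between chromosomes. On chromosome 19 there were 1131 HRG peaks without an EGF peak and 70 EGF peaks without an HRG peak, a ratio of 16.2. The ratio was 6.68 on chromosome 22, 4.09 on chromosome 16 and 4.07 on chromosome 17, and it was 0.691 on chromosome 4 and 0.79 on chromosome 13. Across 23 chromosomes, Y left out, the mean GC content of peaks rose with the ratio of all HRG to all EGF peaks. The Spearman correlation was 0.83, and 0.93 without chromosome 7. The part of GC content in these ratios was not tested. On chromosome 7, 58.1% of EGF peaks were alone, against 8.6% to 42.1% on each of the others but Y. Of the HRG peaks 63.9% (62 to 65.8) were alone there, close to the 61% (58.7 to 63.2) of chromosome 19. The AP-1 share of sites on EGF but not HRG was 6.37% on chromosome 7 and 15.2% on the other chromosomes. Without chromosome 7 the AP-1 ratio was 2.03 (1.89 to 2.19).

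Sites of 1 growth factor were clustered in places, and 3 of the 6 stretches named here lie on chromosome 7, where peaks of either list overlapped less often and were wider than on the other chromosomes together. The median width of EGF peaks alone was 2120 bp on chromosome 7 and 1218 bp on the others, and of HRG peaks alone 2027 bp and 1241 bp. The part of this in the clusters was not tested. The 500-kb stretches with most sites on EGF but not HRG were chr7:118000001-118500000 beside ANKRD7 (27 sites), chr3:6500001-7000000 (26) and chr3:7000001-7500000 (24), the latter pair within and around GRM7, the gene of a metabotropic glutamate receptor. Their sites averaged 34.9% to 36.2% GC, 15, 19 and 18 of them held vehicle peaks, and 1, 2 and 0 held an AP-1 word. The stretches with most sites on HRG but not EGF were chr7:73500001-74000000 around CLIP2 and GTF2IRD1 (35 sites), chr7:73000001-73500000 around ELN (elastin, 34) and chr17:79500001-80000000, with 31 coding genes among which are P4HB and ARHGDIA (34). They averaged 53.2% to 60.7% GC, and 0, 1 and 1 of their sites held a vehicle peak.

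For genes, a peak was assigned to every protein-coding gene with a start within 20 kb of its centre. Of 19821 genes, 9444 had peaks of both lists in range (47.6%), 890 of EGF only (4.49%, interval 4.21 to 4.79) and 3029 of HRG only (15.3%, interval 14.8 to 15.8). A peak within 1 kb of a start was present in 168 of the EGF-only genes (18.9%) and in 1454 of the HRG-only genes (48.0%). The vehicle list had a peak in range of 58.9% of the EGF-only and 25.1% of the HRG-only genes. The EGF-only gene with most peaks was GRM7 with 8, followed by SLC7A14 (a lysosomal amino acid transporter) with 6 and ACOXL and AHR (the aryl hydrocarbon receptor) with 5. On the HRG side ADAP1 had 9 and GRIFIN 7, both on chromosome 7, and P4HB (protein disulphide isomerase) and PLAUR (the urokinase receptor) had 7 each. Fixed lists of genes were then read against the shares of 4.49% and 15.3% of all genes. Genes near each other share peaks, and none of the counts below was tested.

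**Figure D5:**
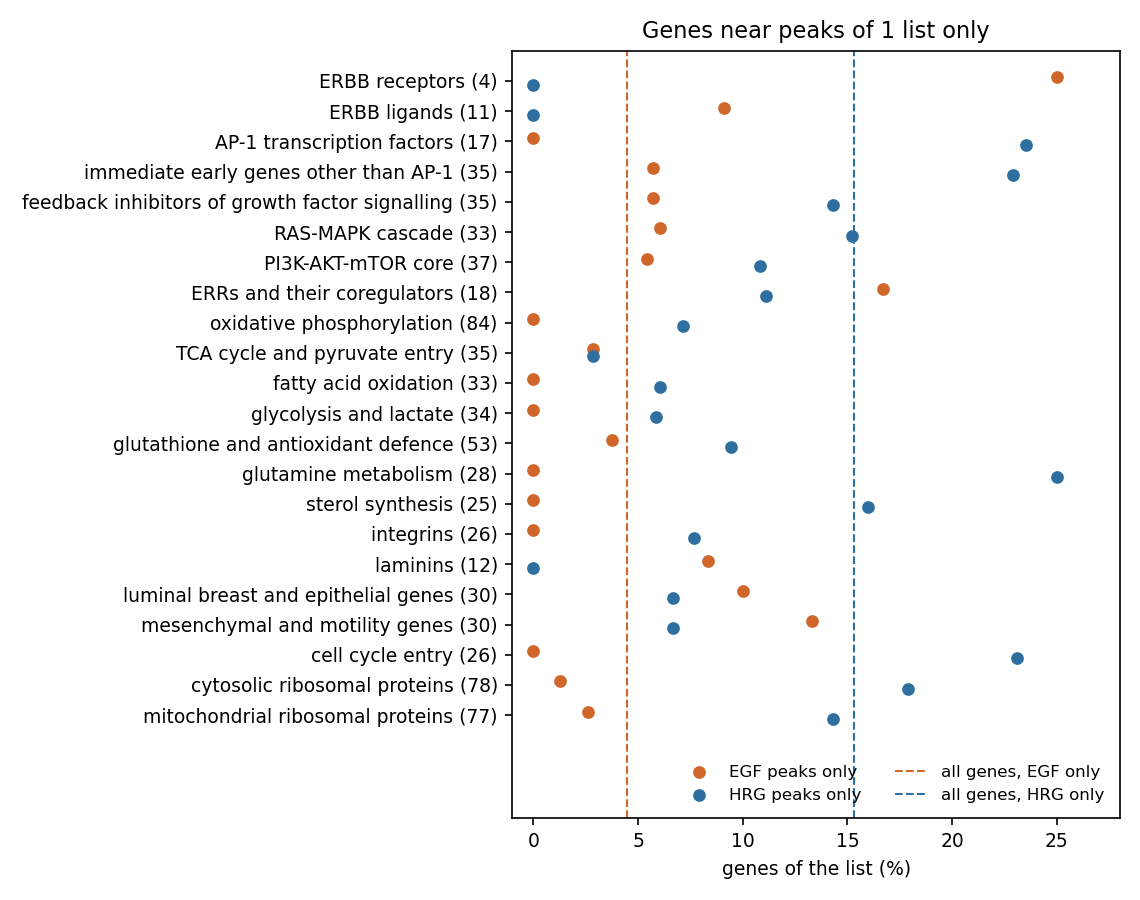
Share of the genes of each list (%, x axis, list size in brackets) with peaks of EGF only (orange points) or HRG only (blue points) within 20 kb of a start. Dashed lines mark the shares of all genes, 4.49% for EGF only and 15.3% for HRG only. HRG-only shares are at 22.9% to 25% for AP-1 factors, other immediate early genes, glutamine metabolism and cell cycle entry, and at 2.86% to 9.43% for mitochondrial energy metabolism, glycolysis and glutathione.

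Among receptors and ligands of the ERBB family, EGF-only genes were ERBB4 (HER4, another receptor of HRG) and NRG3 (neuregulin 3). The ERBB4 peak scored 80.4, lay 3909 bp from a start and was also in the vehicle list, and both peaks of NRG3 were weak, at 56.2 and 64.1. Of 4 ERBB receptors and 11 ligands, none was HRG only. Of 17 genes of AP-1 transcription factors, 12 had peaks of both lists (70.6%), none of EGF only and 4 of HRG only (23.5%, against 15.3% of all genes). The HRG peak of JUN, a core AP-1 subunit, lay 401 bp from its start and scored 461, at a GC content of 67.7%. FOSB had 3 HRG peaks, the strongest at 791 within ERCC1 and 12901 bp from a start of FOSB. BATF2 and BACH2 completed the 4, at score percentiles of 26.6 and 10.3. None of the JUN and FOSB peaks held an AP-1 or ERRE word within 100 bp of its centre, and none was in the vehicle list.

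Of 35 other immediate early genes, 20 had peaks of both lists, 8 of HRG only (22.9%) and 2 of EGF only (5.71%). The HRG-only genes were led by CSRNP1, with 3 peaks of up to 3100, and by PLAUR, whose strongest peak scored 222 and lay 475 bp from a start. They also included SRF (serum response factor), for which a peak of 183 lay 10923 bp away at the promoter of CUL9. The EGF-only genes were BTG1, an antiproliferative gene with a peak of 209 at 1446 bp from a start, and PTGS2 (cyclooxygenase 2), with a peak of 77.3 at 11017 bp. Both of these peaks were also in the vehicle list, and 4 of the 8 HRG-only genes, CSRNP1, PLAUR, EGR3 and NR4A2, had a vehicle peak in range.

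Lists of signalling genes stood near the background. Of 33 genes of the RAS-MAPK cascade, 5 were HRG only (15.2%) and 2 EGF only (6.06%). GRB2, the adaptor of activated receptors, had an HRG peak 4 bp from its start with a score of 141. The ETS factor ELK3 had an EGF peak of 205 at 3784 bp. MAPK3 (ERK1) had 3 HRG peaks of 154 to 224 at 6372 to 18373 bp from a start, all nearest to GDPD3. Of 35 feedback inhibitors, 5 were HRG only (14.3%) and 2 EGF only, and the ubiquitin ligases of the CBL family were on both sides. CBLB had an EGF peak of 204 in an intron 17770 bp from a start. CBL had HRG peaks of 78 at 12694 bp, nearest to MCAM, and of 240 at 14775 bp, nearest to CCDC153. Of 37 PI3K-AKT-mTOR genes, 4 were HRG only (10.8%), among them TSC1, an inhibitor of mTORC1, with a peak of 174 at 9 bp from a start, and 2 EGF only, MAPKAP1 and FOXO3.

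Genes of mitochondrial energy metabolism and of glycolysis were mostly bound on both growth factors. This was so for 76 of 84 genes of oxidative phosphorylation (90.5%, against 47.6% of all genes), 31 of 35 of the TCA cycle (88.6%), 25 of 33 of fatty acid oxidation (75.8%) and 29 of 34 of glycolysis (85.3%). The remaining oxidative phosphorylation genes were 6 HRG only, none EGF only and 2 without a peak. UQCR11 (a subunit of complex III) had an HRG peak of 323 at 89 bp from a start, NDUFB8 (complex I) of 245 at 109 bp, and NDUFB10 (complex I) of 157 at 89 bp. ETFA, which carries electrons from fatty acid oxidation, was HRG only with a peak of 211 at 50 bp from a start and another of 359 at 2109 bp, as was CPT1C, of the carnitine palmitoyltransferase family. Of 53 glutathione and antioxidant genes, 40 had peaks of both lists (75.5%), 5 of HRG only and 2 of EGF only. The latter were SLC7A11, the cystine transporter, with peaks of 87.2 and 128, and GSTT2B.

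Of 28 genes of glutamine metabolism, 16 were bound on both (57.1%, against 47.6% of all genes), 7 were HRG only (25%, against 15.3%) and none EGF only. PPAT, the first enzyme of purine synthesis, shares a promoter peak of 448 with PAICS at 598 bp from a start. ASNS (asparagine synthetase) had an HRG peak of 248 at 73 bp from a start, and CAD, which starts pyrimidine synthesis, one of 357 at 5368 bp, at the promoter of SLC5A6. Of 25 sterol genes, 4 were HRG only (16.0%), among them ACAT2 with a peak of 290 at 603 bp and MSMO1 (methylsterol monooxygenase) with a peak of 130 at 24 bp. Of 26 genes of cell cycle entry, 6 were HRG only (23.1%) and none EGF only. CDK4 had an HRG peak of 149 at 76 bp from a start and 3 weaker ones, MDM2 (the p53 ligase) one of 174 at 30 bp, and CDKN1C (the inhibitor p57) one of 444 at 16381 bp. Of 78 cytosolic ribosomal protein genes, 14 were HRG only (17.9%) and 1 EGF only, RPS13. For mitochondrial ribosomal proteins the counts were 11 of 77 (14.3%) and 2. RPL5 had an HRG peak of 327 at 65 bp from a start, and MRPL20 of 524 at 255 bp.

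EGF-only genes were more frequent than in the background in some lists of few genes. Of 30 mesenchymal and motility genes, 4 were EGF only (13.3%, against 4.49% of all genes) and 2 HRG only. They were TGFBR2, PLAT (tissue plasminogen activator), TWIST1 (a factor of epithelial-mesenchymal transition) and CDH2 (N-cadherin). TGFBR2 had peaks of 70 at 9122 bp from a start and of 244 at 19756 bp, and PLAT a peak of 133 at 4210 bp. TWIST1 had a peak of 110 at 19118 bp, and CDH2 a peak at a score percentile of 4.79 and 19752 bp. The peaks of TWIST1 and CDH2 and the stronger of TGFBR2 thus lay close to the limit of 20 kb. Of 18 genes of ERRs and their coregulators, 3 were EGF only (16.7%), namely PROX1, ESRRB and NCOA3, and 2 HRG only. PROX1 had peaks of 118 and 98.4, both also in the vehicle list, and those of ESRRB and NCOA3 were weak, at 57.2 and 55.3. The HRG-only genes were PPRC1 (a PGC-1-related coactivator) and the deacetylase SIRT1. The peaks of PPRC1 scored 94 at 10838 bp, at the promoter of NOLC1, and 482 at 11483 bp, nearest to LDB1. Of 30 luminal and epithelial genes, 3 were EGF only (10.0%), MYB, KRT19 and PGR (the progesterone receptor). The KRT19 peak overlapped an HRG peak whose centre lay beyond 20 kb, as happened at 5 of the 890 EGF-only and 12 of the 3029 HRG-only genes. LAMC1 was the only laminin of 12 that was EGF only, with a peak of 103, and of 26 integrins 18 were bound on both (69.2%), 2 on HRG only (ITGAL and ITGAM) and none on EGF only.

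Of the 756 different genes of all lists, 27 were EGF only (3.57%, against 4.49% of all genes) and 92 HRG only (12.2%, against 15.3%), so that the lists together lay below the background in both directions. A peak within 1 kb of their own start was present in 2 of the 27 (7.41%), RPS13 and MRPS18C, and in 55 of the 92 (59.8%). The peaks of the named genes ranged in GC content from 29.9% (TWIST1) to 65.2% (RPS13) on EGF and from 38.8% (MDM2) to 79.1% (MRPL20) on HRG, so that the ranges overlap. The part of base composition in these gene counts was not tested.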

How the data were processed

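Each list was deposited by the authors as peak intervals with a score. Reads were aligned to hg19 with BWA 0.5.9, and SAMtools 0.1.18 is also named in the submitters' processing notes. Peaks were called against input with MACS. The deposited score is the negative log10 of the peak's P value times 10. EGF and HRG peaks sharing 1 bp or more were joined into 1 site. The 17 motif words were searched on both strands within 100 bp of the peak centre, since no summits were used, and in windows of the same length 2 kb to each side, in GRCh37 (0 peaks ran past a chromosome end). Gene starts were those of protein-coding genes of GENCODE 44 on GRCh37. The members, motif words and gene lists were chosen with earlier results of these data known. Named sites were those of highest score in each class, those with the largest rank gap or most peaks, and in each gene list up to 4 genes a direction by highest score percentile. Scripts were tested on simulated data with known answers. Python 3.11.15, pandas 2.3.3, scipy 1.17.1 and pysam 0.24.0 were used. Some items that the rule for named sites and genes covers are not reported here.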

Additional observations from a re-analysis of the deposited data

How the results depend on the processing

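The 8 values answering the comparison were recomputed under 65 alternatives, of which 40 left them within their interval (ratios) or within 1.5 times (counts). With both lists at a score of 100 or more, 6498 sites were on EGF but not HRG, 9113 on HRG but not EGF, and the promoter ratio was 6.08. With 1 list at that score against the full other list, these were 4062, 6466 and 7.23, and the ERRE ratio was 2.3. With centres within 500 bp as the rule for sharing, the AP-1 ratio was 1.82 and the promoter ratio 3.22, and with 50% or more of both peaks overlapping the latter was 3.74. The AP-1 ratio was 1.74 within 250 bp of the centre and 1.76 away from promoters. The ERRE ratio was 1.68 away from promoters and 1.64 for the word AAGGTCA. The promoter ratio was 6.02 within 500 bp of a start and 3.88 within 2 kb. Within GC groups, added after the data were seen, the AP-1 ratio was 2.16, 1.67 and 2.54 from low to high. The ERRE ratio was 2.22, 1.22 and 0.689, and the promoter ratio 0.872, 1.87 and 2.05. The ERRE ratio at high GC and the promoter ratio at low GC were reversed, with intervals that include 1. Without chromosome 7, also added then, every value recomputed stayed within its interval or within 1.5 times. The cause of these shifts was not tested. With the HRG list cut to the size of the EGF list, 12015 sites were on EGF alone and 12244 on HRG alone, counts that equal list sizes bring close to each other by construction, and 1135 genes were EGF only and 2600 HRG only. No paired analysis was possible because each treatment has 1 list that pools its libraries, and for the same reason no replicate could be left out.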
